A study of Mus musculus with 9 samples.

Results

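The genes described here are 10 genes of osteoclast differentiation, Nfatc1, Prdm1, Oscar, Calcr, Dcstamp, Ocstamp, Tm4sf19, Acp5, Ctsk and Mmp9, in RAW264.7 cells. They were picked by name with their FPKM (fragments per kilobase of gene, scaled to library size) by group in these libraries already known. Their values are therefore given as a description, with no p-value printed for any of them. Counts of members past a threshold stand only beside the share of all genes past it. Of the 28137 Ensembl identifiers in the expression table, 9 belong to these genes. Calcr, the calcitonin receptor of mature osteoclasts, has no row in the table and was not analysed here.

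RAW264.7 is a mouse leukemic monocyte-macrophage line. Cells received 60 nM of control siRNA (NC), of SFRP2 siRNA or of RAB6A siRNA for 6 h in DMEM, were kept for 12 h in complete medium, and were then given lipopolysaccharide (LPS) at 100 ng/ml for 24 h in every group. The title of every library ends in 6H, and the titles do not say to which step this time refers. The paper's methods differ from these labels in the siRNA concentration, the transfection reagent, the medium and the time between transfection and LPS, and add IFN-γ. No osteoclast-inducing ligand is named for these 9 libraries, and none of them is labelled as grown without LPS. Each group has 3 libraries (9 in all), and no source says whether these come from separate cultures, so that p-values measure the spread between libraries, which may be technical. Nor is it stated whether the libraries of a group received the same siRNA sequence. The paper's supplement lists 3 numbered SFRP2 siRNA sequences, and the titles of the 3 SFRP2 siRNA libraries are numbered likewise, as are those of the other groups.

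Osteoclasts are multinucleated cells that resorb bone, and they form by fusion of precursors of the monocyte-macrophage lineage. The ligand RANKL binds its receptor RANK on the precursor while M-CSF keeps it alive, and co-receptors that carry ITAM motifs supply a calcium signal. These inputs meet on NFATc1, the master transcription factor, which turns on the genes for cell fusion and for the acid and enzymes that dissolve bone. RAW264.7 cells are widely used as precursors because they become osteoclasts when RANKL is added, whereas LPS given without RANKL is known for a macrophage response.

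The promoters of 4 members whose level was lower in the RAB6A siRNA group are shown first, because NFATc1, AP-1, PU.1 and MITF are known to act on osteoclast genes and the bases before the start are where such motifs are looked for. Of the 10 members, 6 have a promoter in the RefSeq table used (GRCm38.p6), which holds none for Nfatc1, Dcstamp, Ocstamp and Mmp9. Each line gives the 250 bases before a transcription start, 5′ to 3′ on the strand of the gene. Capitals mark matches on either strand to the NFAT core GGAAA, the AP-1 site TGANTCA, the PU.1 core GAGGAA or the E-box CANNTG, to which MITF binds. The windows are chr16:32400256-32400505 on the + strand for Tm4sf19, chr9:22135747-22135996 on the - strand for Acp5, chr3:95498960-95499209 on the + strand for Ctsk, and chr10:44458749-44458998 on the - strand for Prdm1.
Tm4sf19: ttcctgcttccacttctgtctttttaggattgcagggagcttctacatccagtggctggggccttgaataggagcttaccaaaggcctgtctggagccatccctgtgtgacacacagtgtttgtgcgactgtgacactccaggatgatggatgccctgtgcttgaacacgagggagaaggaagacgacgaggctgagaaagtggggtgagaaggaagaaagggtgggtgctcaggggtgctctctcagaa
Acp5: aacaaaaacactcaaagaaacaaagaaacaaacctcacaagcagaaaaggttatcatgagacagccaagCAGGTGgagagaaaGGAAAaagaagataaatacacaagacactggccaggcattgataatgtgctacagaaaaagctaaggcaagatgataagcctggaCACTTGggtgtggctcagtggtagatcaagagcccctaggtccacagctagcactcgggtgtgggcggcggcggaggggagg
Ctsk: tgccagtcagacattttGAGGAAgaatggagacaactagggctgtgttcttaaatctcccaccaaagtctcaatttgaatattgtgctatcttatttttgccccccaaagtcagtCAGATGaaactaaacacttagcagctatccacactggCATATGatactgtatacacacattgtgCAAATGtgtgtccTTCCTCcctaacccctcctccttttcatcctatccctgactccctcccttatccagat
Prdm1: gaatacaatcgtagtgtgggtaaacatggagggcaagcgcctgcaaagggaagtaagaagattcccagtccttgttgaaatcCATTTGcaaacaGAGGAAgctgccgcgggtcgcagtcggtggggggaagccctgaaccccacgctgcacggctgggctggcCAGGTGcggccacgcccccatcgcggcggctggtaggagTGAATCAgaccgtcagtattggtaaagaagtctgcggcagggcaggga

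The Tm4sf19 window held no match to any of the 4 motifs, and with the first 50 transcribed bases it gained 2 E-boxes. The Acp5 window shown precedes a RefSeq start near, but not at, the gene start in GENCODE M21. It had 1 NFAT core, 167 bases before the RefSeq start, and 2 E-boxes, and the other 2 Acp5 starts in the table had 1 and 2 NFAT cores. The Ctsk window also precedes a RefSeq start that lies before the gene start in GENCODE M21. It had 2 PU.1 cores, 233 and 58 bases before the RefSeq start, and 3 E-boxes. With the first 50 bases after that RefSeq start it gained 1 NFAT core, where the 250 bases shown hold none. Prdm1, whose window precedes a start inside the gene, was the single member of the 6 with an AP-1 match, 48 bases before its start, beside 1 PU.1 core and 2 E-boxes. Among 32851 RefSeq promoter windows of the same length outside chromosome 18, 55.6% held an NFAT core, 6.7% an AP-1 site, 23.3% a PU.1 core and 66.2% an E-box. Matches describe letters and not bound sites. Matches to different motifs may overlap. The Oscar window, not shown,  had 3 NFAT cores, 1 PU.1 core and 4 E-boxes.

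Scaling totals of 32758730 to 47149257 reads per library were inferred from the FPKM values, with the lowest range in the RAB6A siRNA group. Of these, 31774088 to 45757174 reads were recovered for genes with whole multiples of 1 read. The libraries are paired-end and low counts were often even (Oscar 4, 2 and 4 in NC), so that 1 read may be 1 mate of a pair. Independent fragments may then be fewer than the reads printed here, which also holds for the floor of 3 reads. Of 8 macrophage markers, 7 had a mean FPKM of at least 1 in every group, and their summed FPKM was 4439 to 4891 in the NC, 3925 to 4245 in the SFRP2 siRNA and 3900 to 4053 in the RAB6A siRNA libraries. Mertk was the marker at a low level. Cd68 and Cd14 make up most of this sum, and the members differed in direction, since in RAB6A siRNA against NC the mean FPKM of Lyz2 was 214 against 872, that of Csf1r 27.0 against 73.6 and that of Fcgr1 39.9 against 66.6, while that of Cd14 was 1943 against 1679. The part of this in the results was not tested. The summed FPKM of 8 osteoblast or fibroblast markers was 2.07 to 3.25, 2.57 to 3.27 and 3.42 to 4.62 in the same order, and that of the lymphocyte, dendritic cell and neutrophil markers was at most 1.25 for each list in any library. The 5 endothelial or epithelial markers summed to 0.940 to 1.06, 0.773 to 1.05 and 1.09 to 1.40. Both comparisons with NC share the NC libraries. Sfrp2 had 2 to 4 reads in every library, around the floor of 3 reads, so that its knockdown was not detectable at this depth. Rab6a had a FPKM of 24.3 to 27.3 in the NC and 20.4 to 21.2 in the RAB6A siRNA libraries (-0.31 on the log2 scale with a standard error of 0.06; limma, adjusted p = 0.0024), or -0.18 under quantile normalization. The 10 genes with most reads took 14.2% to 17.5% of the reads in the NC and SFRP2 siRNA libraries and 19.1% to 19.7% in the RAB6A siRNA libraries, and the part of this in the results was not tested.

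In the control cells, Tm4sf19 and Dcstamp stood above Nfatc1, the enzymes Acp5, Ctsk and Mmp9 below it, and Ocstamp, Prdm1 and Oscar at the bottom. Tm4sf19, a membrane protein of the L6 family linked to multinucleated osteoclasts, had the highest level, at an FPKM of 34.7 ± 2.94 (SD, n = 3). It was followed by Dcstamp, the dendritic cell-specific transmembrane protein that precursors need to fuse, at 21.7 ± 0.391, and by Nfatc1 at 9.62 ± 0.583. By mean FPKM these stood above 94.5%, 91.3% and 82.6% of the 24360 genes with a value above 0 in the NC group. Since FPKM is scaled to gene length, these levels can be set side by side.
The enzymes of resorption were lower. Acp5, the tartrate-resistant acid phosphatase used to stain osteoclasts, was at 3.21 ± 0.221 (SD, n = 3), Ctsk, the collagen-cleaving cathepsin K, at 1.71 ± 0.471, and Mmp9, a gelatinase, at 0.542 ± 0.144. Ocstamp, the second known fusion protein of osteoclasts, was at 0.305 ± 0.101, Prdm1, the repressor BLIMP1 that silences inhibitors of the program, at 0.160 ± 0.0148, and Oscar, a collagen receptor that signals through the Fc receptor gamma chain, at 0.0420 ± 0.0165 (SD, n = 3 each). The order was a ladder in which the ranges of neighbours did not overlap, but the lowest NC library of Mmp9 (0.414) lay above the highest of Ocstamp (0.407) by less than the SD of either gene. Among 13 cathepsin genes above 0, Ctsk ranked 11 in the NC group, and the mean FPKM of Ctsz, the highest, was 370 times that of Ctsk.

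**Figure D1:**
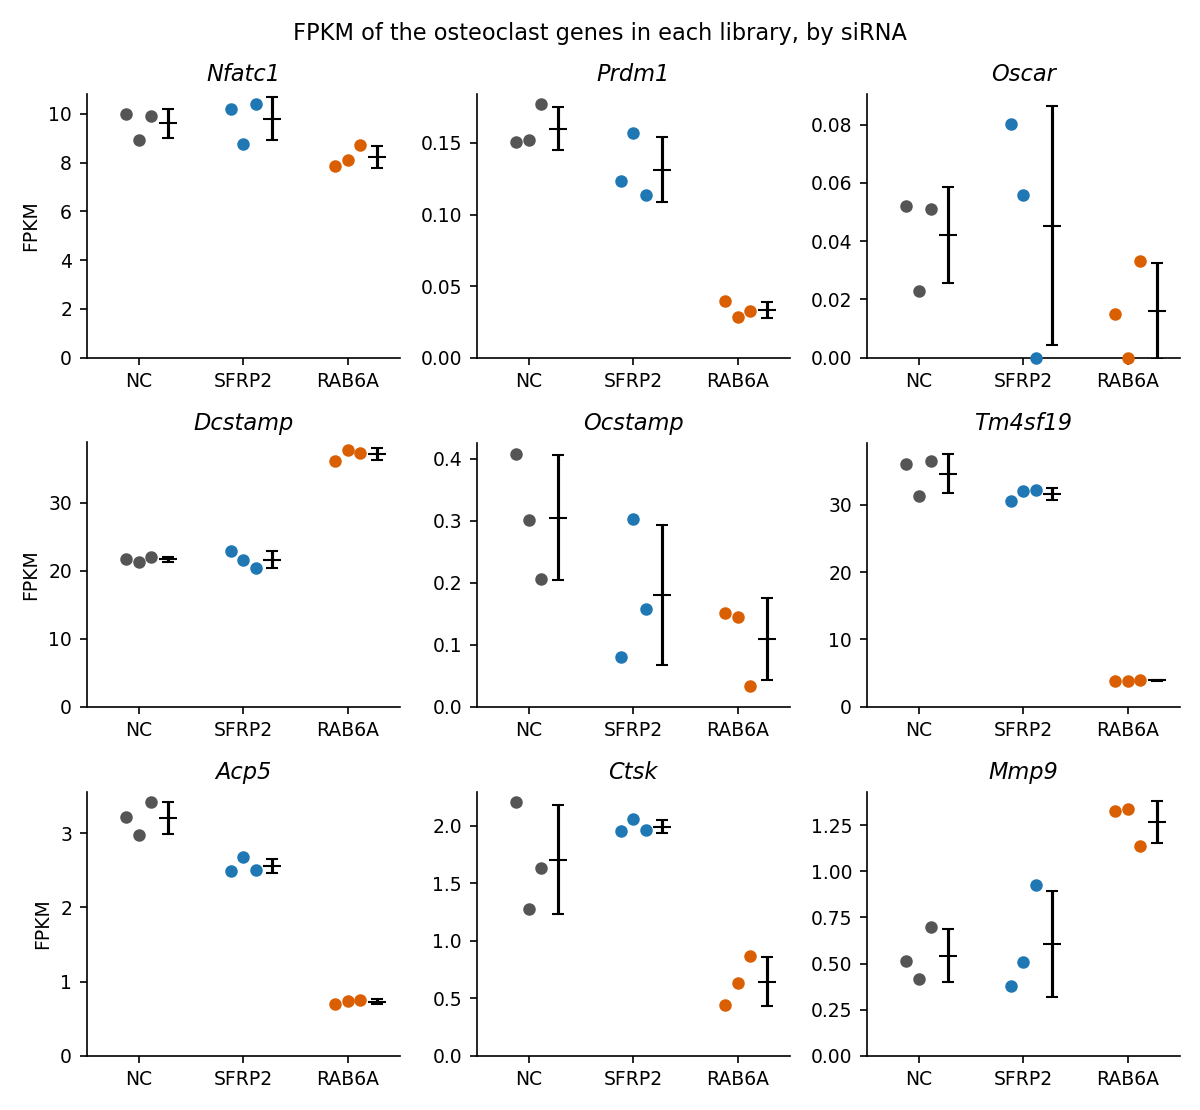
FPKM (y axis, linear from 0) of the 9 osteoclast genes in the 3 libraries of each group (points), with the group mean and SD (bars, cut at 0 for Oscar). Tm4sf19, Acp5 and Prdm1 lie far lower in all 3 RAB6A siRNA libraries than in the others, Dcstamp and Mmp9 lie higher, and Nfatc1 shifts little.

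The gene of the master regulator differed little between the groups. Nfatc1 (ENSMUSG00000033016, chr18:80606205-80713071 on the - strand in GENCODE M21 on GRCm38) had an FPKM of 9.99, 8.94 and 9.91 in the NC, 10.2, 8.79 and 10.4 in the SFRP2 siRNA and 7.86, 8.12 and 8.72 in the RAB6A siRNA libraries. The SFRP2 siRNA values spread across the NC values, while the highest RAB6A siRNA value was just under the lowest NC value. The log2 fold change against NC was -0.22 with a standard error of 0.07 in the RAB6A siRNA group and 0.03 with a standard error of 0.09 in the SFRP2 siRNA group (difference of mean log2(FPKM + 0.1), n = 3 per group, as for all members). Of the genes tested, 80.3% differed by more than Nfatc1 did between RAB6A siRNA and NC.
Prdm1 (ENSMUSG00000038151) was far lower in the RAB6A siRNA libraries, at 8, 6 and 6 reads against 35, 40 and 42 reads in the NC libraries. Its FPKM there was 0.0395, 0.0284 and 0.0328 against 0.151, 0.152 and 0.177, so that the mean was 4.77-fold lower and the groups did not overlap. On the scale of log2(FPKM + 0.1) the difference was smaller, at -0.96 with a standard error of 0.06, since the pseudocount is large beside such low values. The 3 SFRP2 siRNA libraries had 28, 34 and 22 reads and overlapped with the NC libraries in FPKM (0.114 to 0.157).
Oscar (ENSMUSG00000054594) was at the limit of detection, with 4, 2 and 4 reads in the NC, 6, 4 and 0 in the SFRP2 siRNA and 1, 0 and 2 in the RAB6A siRNA libraries. No fold change is given for it, since the counts lie around the floor of 3 reads.

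The fusion genes went in opposite directions in the RAB6A siRNA group. Dcstamp (ENSMUSG00000022303, chr15:39745930-39760938, + strand) had an FPKM of 21.8, 21.2 and 22.0 in the NC, 22.9, 21.6 and 20.4 in the SFRP2 siRNA and 36.1, 37.8 and 37.4 in the RAB6A siRNA libraries. All 3 RAB6A siRNA values were well above the other 6, which were mixed. The mean was 1.71-fold higher than in NC, a log2 fold change of 0.77 with a standard error of 0.02, against -0.0046 with a standard error of 0.05 for SFRP2 siRNA.
Tm4sf19 (ENSMUSG00000079625, chr16:32400506-32408227, + strand) showed the widest difference of the members. Its FPKM was 36.2, 31.3 and 36.6 in the NC, 30.6, 32.0 and 32.2 in the SFRP2 siRNA and 3.85, 3.83 and 4.01 in the RAB6A siRNA libraries. The RAB6A siRNA libraries were nearly equal to one another and 8.90-fold lower than NC in the mean, a log2 fold change of -3.12 with a standard error of 0.08. Of all genes tested in this comparison, 2.60% differed by more. In the SFRP2 siRNA group the log2 fold change was -0.13 with a standard error of 0.08, and the highest values overlapped with the lowest NC value. Because these are bulk libraries, fewer cells with a transcript and less transcript per cell cannot be told apart.
Ocstamp (ENSMUSG00000027670) had 62, 52 and 32 reads in the NC, 12, 43 and 20 in the SFRP2 siRNA and 20, 20 and 4 in the RAB6A siRNA libraries. Its libraries were scattered within each group, and the RAB6A siRNA values (FPKM 0.0334 to 0.150) lay below the NC values (0.206 to 0.407) but not below the SFRP2 siRNA values (0.0809 to 0.302).

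Among the enzymes, Acp5 (ENSMUSG00000001348, chr9:22126727-22135711, - strand) had an FPKM of 3.22, 2.98 and 3.42 in the NC, 2.49, 2.67 and 2.51 in the SFRP2 siRNA and 0.691, 0.742 and 0.752 in the RAB6A siRNA libraries. The 3 groups formed separate bands with NC on top. The mean was 4.40-fold lower in the RAB6A siRNA group than in NC (log2 fold change -1.99, standard error 0.06, or -1.28 with a pseudocount of 1) and 1.25-fold lower in the SFRP2 siRNA group (log2 fold change -0.31, standard error 0.06). Of its exonic bases, 6.75% are shared with the antisense gene 6530413G14Rik, whose reads cannot be told from those of Acp5 where strand was not counted.
Ctsk (ENSMUSG00000028111, chr3:95499256-95509362, + strand) had an FPKM of 2.21, 1.28 and 1.63 in the NC, 1.96, 2.06 and 1.96 in the SFRP2 siRNA and 0.437, 0.629 and 0.868 in the RAB6A siRNA libraries. The SFRP2 siRNA values fell inside the wide range of the NC values, and all RAB6A siRNA values were lower than both. The log2 fold change against NC was -1.29 with a standard error of 0.33 in the RAB6A siRNA group, from 24 to 43 reads per library against 91 to 139. For comparison, Ctsz was at a mean FPKM of 632 in NC and 584 in RAB6A siRNA, and Ctsb at 479 and 383.
Mmp9 (ENSMUSG00000017737, chr2:164940780-164955850, + strand) went the other way, with an FPKM of 0.516, 0.414 and 0.698 in the NC, 0.376, 0.509 and 0.927 in the SFRP2 siRNA and 1.33, 1.34 and 1.14 in the RAB6A siRNA libraries. All RAB6A siRNA values were above the other 6, among which the SFRP2 siRNA libraries spread most. The mean was 2.34-fold higher than in NC, a log2 fold change of 1.11 with a standard error of 0.20. Under quantile normalization this was 0.67 and with a pseudocount of 1 it was 0.56, and without NC replicate 2 it was 0.96, each under the fold threshold of 1 used for DEGs. Ctsk was at -0.71 with a pseudocount of 1, also short of that threshold.

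**Figure D2:**
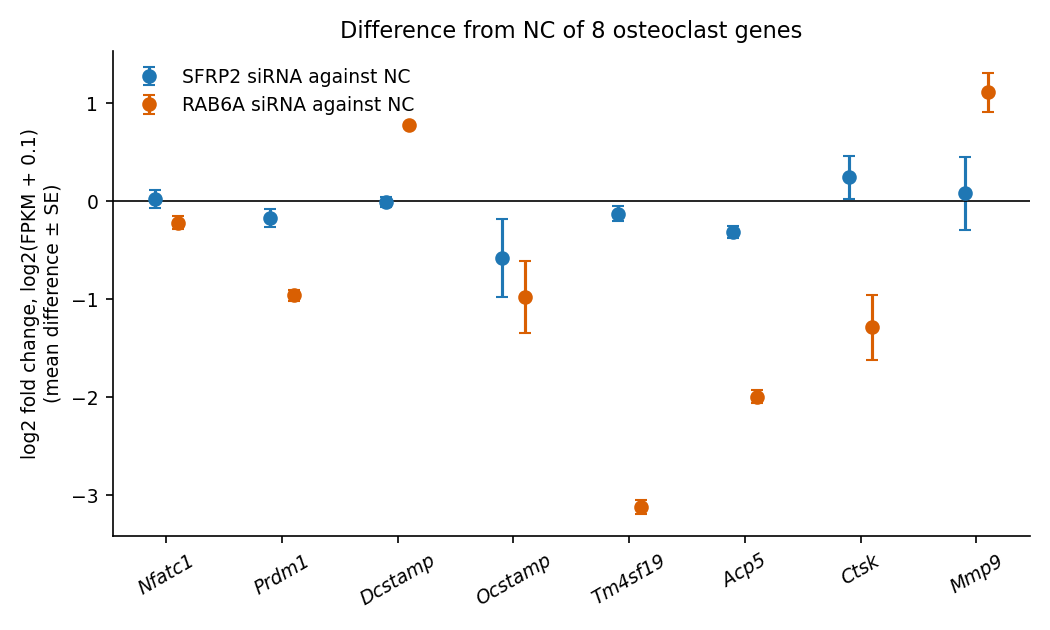
Log2 fold change against NC (y axis, difference of mean log2(FPKM + 0.1); bars are the standard error, n = 3 per group) of 8 osteoclast genes, Oscar left out, for SFRP2 siRNA (blue) and RAB6A siRNA (orange). The RAB6A siRNA points run from -3.12 for Tm4sf19 to 1.11 for Mmp9, and the SFRP2 siRNA points from -0.58 for Ocstamp to 0.24 for Ctsk.

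With these differences the ladder of levels was reordered. In the RAB6A siRNA group Dcstamp was highest at 37.1 ± 0.880 (SD, n = 3), followed by Nfatc1 at 8.23 ± 0.440, Tm4sf19 at 3.90 ± 0.0974 and Mmp9 at 1.27 ± 0.112. Acp5 and Ctsk came next and could not be ordered, since the range of Acp5 (0.691 to 0.752) lay inside that of Ctsk (0.437 to 0.868). Ocstamp, Prdm1 and Oscar remained at the bottom, where the ranges of neighbours overlapped. In the SFRP2 siRNA group the order of means was that of the NC group, with Ocstamp and Prdm1 overlapping.

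Read against all genes, 1 of the 6 members past the filter on low values (an FPKM averaging 0.5 or more in the 6 libraries compared) did not overlap between SFRP2 siRNA and NC, namely Acp5, where 24.7% of 12017 genes did not overlap. With limma on log2(FPKM + 0.1), 0 of the 6 had an adjusted p under 0.05, as had 0% of all genes tested. Between RAB6A siRNA and NC, 6 of 6 did not overlap, 2 higher and 4 lower, where 77.4% of 12712 genes did not (39.2% higher and 38.2% lower). All 6 also had an adjusted p under 0.05 from limma, where 74.1% of all genes had one. As DEGs, with an absolute log2 fold change over 1 as well, 4 of 6 were called, 1 higher and 3 lower, where 30.1% of all genes were. The same 4 were called between RAB6A siRNA and SFRP2 siRNA, where 31.1% of 12764 genes were. Since the members were chosen with these values known, the counts describe them and support nothing further. Prdm1, Oscar and Ocstamp were under the filter in every comparison. Of all 9 members in the table, 1 did not overlap between SFRP2 siRNA and NC, where without the filter 15.1% of 26365 genes with a value above 0 did not. Between RAB6A siRNA and NC, 8 of the 9 did not overlap, Oscar being the exception, where without the filter 49.4% of 27077 genes did not. Genes under the filter weigh more in this share, since 12712 of the 27077 genes were past it against 6 of the 9 members. The share past the filter was 77.4%, so that 8 of 9 is not read as an excess.

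**Figure D3:**
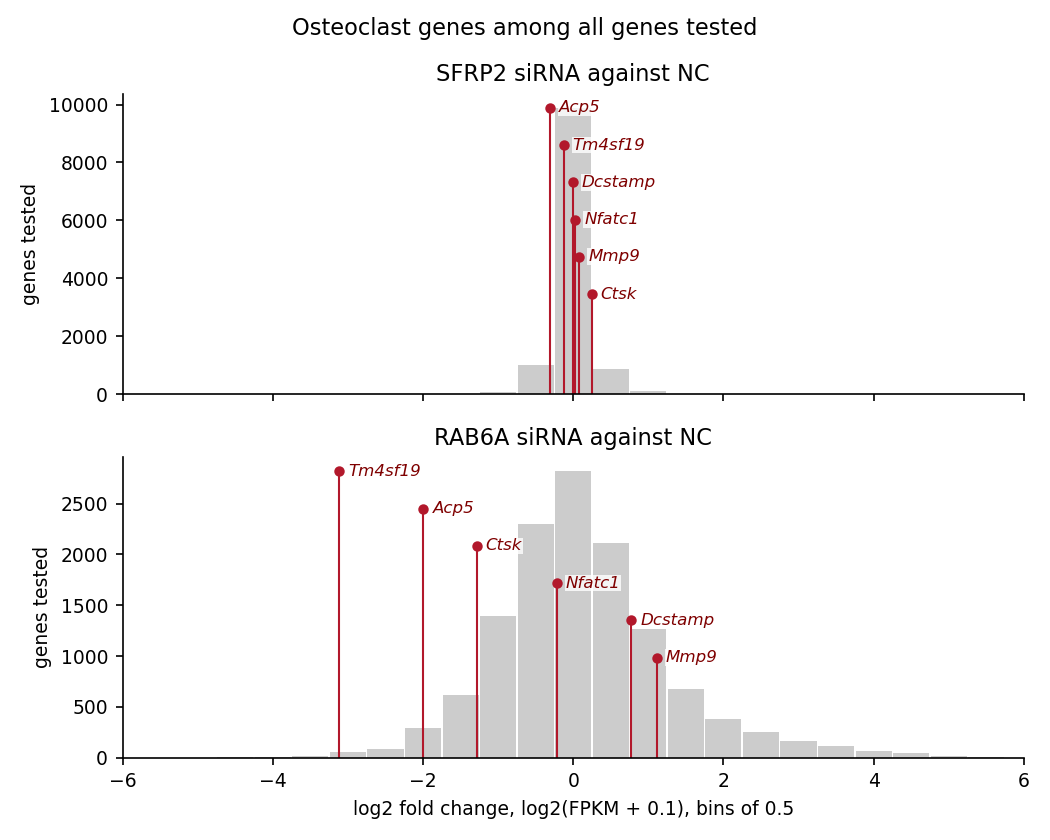
Number of genes tested (y axis) by log2 fold change (x axis, bins of 0.5) for SFRP2 siRNA against NC (top) and RAB6A siRNA against NC (bottom), with the 6 members past the filter marked by red lines whose height has no meaning. The distribution is narrow in the top panel and wide in the bottom panel, where Tm4sf19 lies in the lower tail and Nfatc1 near the middle.

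The other genes of the pathway were taken from 7 lists by role with 85 genes, of which 83 are in the table and the ligand Tnfsf11 (RANKL) and the factor Tfec are not. Between SFRP2 siRNA and NC, limma called 0 of 73 genes past the filter at an adjusted p under 0.05, while the unadjusted p was under 0.05 for 10 of them and for 18.5% of all genes. On recovered reads voom also called 0, with 17 of 70 under an unadjusted p of 0.05. Their median log2 fold change was -0.04, against -0.01 over all genes tested. The receptor gene Tnfrsf11a (RANK) was at 6.28 ± 0.437 in NC and 6.56 ± 0.0865 in SFRP2 siRNA (SD, n = 3 each; log2 fold change 0.06, standard error 0.07, adjusted p = 0.611 from limma), and Csf1r, the M-CSF receptor, at 73.6 ± 8.48 and 68.3 ± 4.33 (log2 fold change -0.10, standard error 0.09, adjusted p = 0.564 from limma).
Between RAB6A siRNA and NC, 55 of 74 genes (74.3%) had an adjusted p under 0.05, 24 higher and 31 lower, which is near the 74.1% of all genes. The shares of all genes were 37.6% higher and 36.5% lower. The median log2 fold change was -0.07, against 0.03 over all genes tested. Between RAB6A siRNA and SFRP2 siRNA, which tests the difference between both siRNAs directly, 55 of 74 genes passed, 24 higher and 31 lower, where 73.4% of all genes did (37.6% higher and 35.8% lower). This comparison and the one with NC share the RAB6A siRNA libraries.

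The entry point of the pathway was split between its receptors. Tnfrsf11a was at 7.06 ± 0.619 in the RAB6A siRNA group (SD, n = 3) and did not pass (log2 fold change 0.17, standard error 0.09, adjusted p = 0.125 from limma), while Csf1r fell to 27.0 ± 1.19 (log2 fold change -1.44, standard error 0.09, adjusted p = 7.8e-06). Without RAB6A siRNA replicate 2, Tnfrsf11a passed (log2 fold change 0.24, adjusted p = 0.0449 from limma). Csf1, the gene of M-CSF itself, fell from 9.21 ± 0.0904 to 3.41 ± 0.338 (log2 fold change -1.41, adjusted p = 6.1e-06 from limma). The decoy receptor Tnfrsf11b and the alternative ligand Il34 had a mean FPKM under 0.2 in each group and were not tested.
Of 9 genes of ITAM costimulation past the filter, 6 fell and 2 rose. The adaptors that hold the ITAM rose, Tyrobp (DAP12) by a log2 fold change of 0.97 and Fcer1g by 0.43 (adjusted p = 5.0e-05 and 0.0011 from limma), although under quantile normalization Fcer1g was lower (-0.19, adjusted p = 0.0182 from limma) and Tyrobp was at 0.50. The kinase Syk that they recruit (-1.03) and the scaffolds Lcp2 (-1.06) and Blnk (-2.10) fell, with adjusted p from 5.6e-06 to 8.9e-05 from limma. Blnk was at -1.31 with a pseudocount of 1. As in the lists below, the genes named first are those with the largest changes in each direction, so that a contrast between them is built in. Of the others, Btk (-0.76), Trem2 (-0.63) and Plcg2 (-0.32) also fell. Tec (0.13) did not pass (adjusted p = 0.079 from limma).
Of 12 signalling genes, 6 rose and 2 fell. The kinases Map3k14 of the noncanonical NF-kB route (1.10) and Map3k7 (0.75) and the calcineurin subunit Ppp3ca (0.51) rose, and Tab2 (-0.63) and Traf6 (-0.56), which link RANK to Map3k7, fell (adjusted p from 1.4e-05 to 0.0011 from limma).
Of 17 transcription factor genes, 7 rose and 9 fell. Within AP-1, Fos, which osteoclast formation needs, fell by 1.13 on the log2 scale, whereas Jund (1.72), Fosl2 (1.19) and Jun (1.16) rose (adjusted p from 4.4e-06 to 7.4e-05 from limma). Fosl1 did not pass (-0.07, adjusted p = 0.656 from limma). Mitf rose (0.67) and Tfe3 fell (-0.75), with adjusted p of 8.6e-05 and 4.4e-05 from limma. Spi1, the gene of PU.1, fell from 130.4 ± 9.28 to 62.9 ± 5.41 (log2 fold change -1.05, adjusted p = 2.0e-05 from limma). Myc, which the precursor induces on RANKL, fell from 92.1 ± 1.08 to 6.08 ± 0.286 (log2 fold change -3.90, adjusted p = 1.5e-07 from limma).

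**Figure D4:**
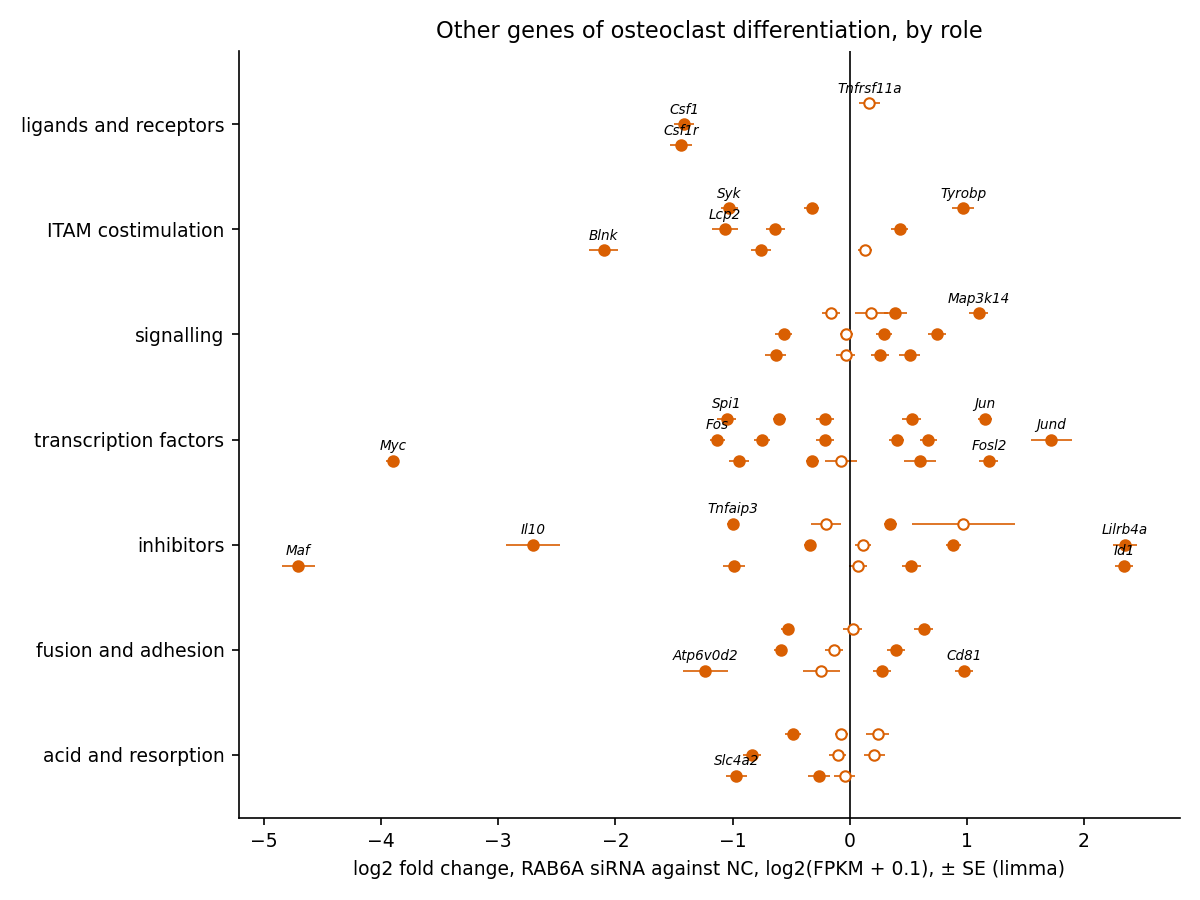
Log2 fold change of RAB6A siRNA against NC (x axis, limma on log2(FPKM + 0.1), bars are the standard error, n = 3 per group) of 74 pathway genes past the filter, by role (y axis). Filled points have an adjusted p under 0.05 and open points do not, and names are given for Tnfrsf11a and for the named genes beyond 0.9 in either direction. Maf and Myc lie farthest to the left.

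The inhibitors of osteoclast formation did not move one way either, with 5 of 14 higher and 5 lower. Maf fell from 13.5 ± 1.87 to 0.422 ± 0.0704 (log2 fold change -4.71), Il10 by 2.70 and the deubiquitinase Tnfaip3 by 1.00 on the log2 scale, with adjusted p of 8.9e-07, 3.1e-05 and 3.8e-06 from limma. Il10 was at -1.64 with a pseudocount of 1. Id1 rose from 2.73 ± 0.196 to 14.3 ± 0.903 (log2 fold change 2.34), Ifnar1, a chain of the interferon receptor, by 0.89, and Lilrb4a, an inhibitory receptor with a closely related neighbour gene that may share its reads, by 2.35 (adjusted p of 1.1e-06, 1.5e-05 and 2.2e-06 from limma).
In the group for fusion and adhesion, 4 of 10 rose and 3 fell. Atp6v0d2, a proton pump subunit that takes part in fusion, fell from 1.45 ± 0.226 to 0.560 ± 0.0916 (log2 fold change -1.23, standard error 0.19, adjusted p = 6.5e-04 from limma), and was at -0.65 with a pseudocount of 1. The tetraspanins Cd81 (0.98) and Cd9 (0.39) and the protease Adam8 (0.63) rose, and Sirpa (-0.59) and Itgb1 (-0.53) fell (adjusted p from 2.2e-05 to 0.0021 from limma). Under quantile normalization Adam8 was at 0.33, and Cd9 was at 0.09 and did not pass. Itgb3, the integrin chain of mature osteoclasts, was at an FPKM of 0.160 ± 0.0408 in NC and was not tested.
Of 9 genes for acid and resorption, 4 fell and 0 rose at an adjusted p under 0.05 from limma (unadjusted, 5 were under 0.05). Those named by the rule were the bicarbonate exchanger Slc4a2 (-0.97), the carbonic anhydrase Car2 (-0.84) and the late endosome GTPase Rab7 (-0.48), with adjusted p from 4.2e-05 to 4.2e-04. The pump and channel genes Tcirg1 and Clcn7 had log2 fold changes of 0.24 and 0.21 and did not pass (adjusted p = 0.0565 and 0.0671 from limma). Neither overlapped with NC, and of the 9 genes 2 lay higher and 4 lower without overlap, where 39.2% and 38.2% of all genes did. Against SFRP2 siRNA, Tcirg1 and Clcn7 passed as higher (0.48 and 0.43, adjusted p = 0.0015 and 9.1e-04 from limma). Mmp14, under the filter and not tested, was at an FPKM of 0.140 ± 0.0154 in NC and 0.767 ± 0.429 in RAB6A siRNA.

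The genes whose profile over the 9 libraries was most like that of a member are given as a description. The measure was the root mean square difference between centred log2(FPKM + 0.1) profiles, over 12548 other genes whose FPKM averaged 0.5 or more. Nearest to Nfatc1 were Npc1 (0.0408), Rreb1 (0.0503) and Dyrk3 (0.0514). Nearest to Dcstamp were Mov10 (0.0376), Man2a2 (0.0397) and Rpl7 (0.0425). Ctsk, whose libraries scatter more, had no gene as close, with Pigw (0.191), Gm10033 (0.195) and Zfp617 (0.202) nearest.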

How the data were processed

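Paired-end RNA-seq of 9 RAW264.7 libraries was used. The authors deposited FPKM per gene; the submitters' processing notes name HISAT2 and featureCounts (Subread), and genome build, annotation and versions are not given in the sources used here. Of 28137 identifiers, 27533 were named from GENCODE M21 (GRCm38). Dividing FPKM times exon length by 1 step per library gave reads whole within 0.03 of a read for 27084 genes (98.4% of those named). Reads, which may be single mates of pairs, state the depth and entered voom only, and floors of 3 reads cover counting error only.

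Comparisons used limma 3.58.1 in R 4.3.3 on log2(FPKM + 0.1), which understates changes of low genes, with eBayes trend, a minimum of 0.5 for the mean FPKM of the 6 libraries, and Benjamini-Hochberg adjustment over all genes. DEGs needed an adjusted p under 0.05 together with a log2 fold change beyond 1 in either direction. Python 3.11.15 with pandas 2.3.3 did the rest. In place of the count test named in the study, the deposited FPKM were tested with limma and the recovered reads with voom. On simulated data for RAB6A siRNA against NC (12165 genes tested), limma found 95.5% of 200 genes changed by 1 to 2 on the log2 scale and called 12 unchanged genes. The share found was 92.5% for SFRP2 siRNA against NC and 90% for RAB6A siRNA against SFRP2 siRNA. In the data 74.1% of the genes passed between RAB6A siRNA and NC, far more than were changed in the simulation, so that these shares may not carry over.

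Members, lists, motifs and the rule for naming genes were chosen with earlier results of these data known. Named were the members, Sfrp2, Rab6a, Tnfrsf11a, Tnfsf11 and Csf1r, up to 3 genes higher and 3 lower per list and comparison with NC by size of change (adjusted p under 0.05, groups not overlapping), and the 3 nearest profiles for Nfatc1, Ctsk and Dcstamp. Other genes (Tcirg1, Clcn7, Mmp14, Itgb3, Tnfrsf11b, Il34, Mertk, Ctsz, Ctsb, Btk, Trem2, Plcg2, Tec, Fosl1, Mitf, Tfe3) were named after their values were seen. Alternatives were 2 other pseudocounts, 2 other filters, median-of-ratios and quantile scaling, no trend, a block for the replicate number, 1 fit of all 9 libraries, voom on recovered reads and each library left out.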

Additional observations from a re-analysis of the deposited data

How the results depend on the processing

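The count of DEGs between SFRP2 siRNA and NC was 0, and 2 with voom on recovered reads and 0 to 1 with a library left out (1 without NC replicate 1). The paper, by contrast, reports both upregulated and downregulated DEGs for SFRP2 siRNA in RAW264.7 cells, using DESeq2 at the same thresholds. Why these counts differ was not tested. Voom called 3862 DEGs between RAB6A siRNA and NC. With a pseudocount of 1 there were 2389 DEGs in place of 3829 between RAB6A siRNA and NC and 2501 in place of 3972 between RAB6A siRNA and SFRP2 siRNA, since that pseudocount shrinks the fold of low genes. With a library left out these counts were 3583 to 3909 and 3699 to 4041. The pathway genes that passed numbered 53 to 57 under every alternative in both comparisons with RAB6A siRNA, and 0 against NC for SFRP2 siRNA. Deviations from the group mean correlated between same-numbered libraries at -0.0847 to 0.0477, which does not settle whether the labels' numbers mark pairs. With the replicate block 0, 3852 and 3993 DEGs and 0, 54 and 54 pathway genes were called, in the order of the comparisons above. For SFRP2 siRNA against NC, 22 of 73 pathway genes had an unadjusted limma p under 0.05 with the block, and 10 without it. Fcer1g was at -0.19 under quantile normalization (RAB6A siRNA against NC), and the cause was not tested. The directions of Nfatc1, Dcstamp, Tm4sf19, Acp5, Ctsk and Mmp9 between RAB6A siRNA and NC held under each alternative in which they were tested. Depth limits Oscar, Prdm1, Ocstamp and Sfrp2, which have few reads.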
